A study of Homo sapiens with 18 samples.

Results

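The 41 genes described here encode chaperones, disulfide isomerases, degradation factors and stress sensors of the endoplasmic reticulum (ER), the compartment in which secreted and membrane proteins are folded. They were chosen by gene symbol from a fixed list that includes PDIA4 and PDIA6, and all 41 were found in each of the 3 tables, which hold 25673 entries for RKO, 19881 for COLO 201 and 19977 for H1975. The study sequenced messenger RNA of RKO and COLO 201, which are colon cancer lines, and of H1975, a lung cancer line, to ask how the mucin MUC1 bears on the stress ligands MICA and MICB and on exosome secretion. In both arms the cells of every line held tet-MUC1shRNA, a hairpin aimed at MUC1 that doxycycline switches on, together with puromycin resistance. Each line had 3 columns of cells given 500 ng/ml doxycycline and 3 columns read as vehicle, 0.1% DMSO, in medium with 10% serum, 18 in all. The sample labels name the same agent for all 18, so the arm was read from the column headings. RKO vehicle columns are headed DOX with no sign, and were taken as the DMSO arm, the only other treatment that the protocol gives. No columns with a control hairpin were analysed here, so hairpin and doxycycline effects cannot be told apart, and the labels do not say whether a line was 1 clone. The length of the treatment was not in the labels.

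Proteins that misfold in the ER are sensed by the membrane proteins IRE1, PERK and ATF6, which start the unfolded protein response. IRE1 splices the messenger RNA of the transcription factor XBP1, PERK slows translation, and ATF6 travels to the Golgi, where the site-1 and site-2 proteases MBTPS1 and MBTPS2 release its active part. The active factors raise the transcription of ER chaperones and of the machinery that sends misfolded proteins out to the proteasome. PDIA6, also called ERp5, is known to act at the surface of tumour cells on a disulfide bond of MICA, a step in the shedding of that ligand.

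Values are deposited TPM, a measure per transcript length and library. Each change is a limma estimate of the difference in log2(TPM + 1), doxycycline minus vehicle, given with its standard error (n = 3 columns per arm). A gene passed the test when its Benjamini-Hochberg adjusted p over all tested genes of the line was under 0.05. MUC1, the target of the hairpin, had 2.03, 1.78 and 1.53 TPM in the doxycycline columns of COLO 201, against 13.2, 15.0 and 13.6 TPM in its vehicle columns. It had 7.05, 9.56 and 7.44 TPM with doxycycline in H1975, against 101, 86.2 and 105 TPM with vehicle. In RKO the doxycycline columns held 0.108, 0.105 and 0.204 TPM, against 15.2, 1.24 and 1.03 TPM in the vehicle columns. Within each line the MUC1 values of the arms did not overlap, and the exact two-sided permutation p was 0.1 in each line, the smallest that 3 against 3 columns can give. RKO vehicle column 1 stood apart: its log2 correlation with the other vehicle columns was 0.909 to 0.912, against 0.996 to 0.998 for the other pairs within an arm. Its fibroblast and endothelial markers summed to 656 TPM, against 2.50 to 8.17 TPM in the other 5 RKO columns, with VIM at 361 and CAV1 at 111 TPM and with CDH5 and CLDN5 at 0 in all columns. Of that list, 5 of 13 genes averaged 1 TPM or more. RKO results are therefore given with and without that column, and the part it plays in the differences between RKO arms is shown by those values. Small noncoding RNA took 71.1% to 78.7% of TPM in the RKO doxycycline columns and 67.8% to 72.0% in the vehicle columns. Mitochondrially encoded genes, taken by symbol, held 0% in every RKO column. They took 16.9% to 18.6% in doxycycline columns and 20.1% to 23.0% in vehicle columns of COLO 201. In H1975 they took 16.1% to 17.4% against 17.4% to 22.5%. Where present, both kinds of gene shift the TPM of every other gene, so changes are also given after rescaling. In it each column was divided by the median ratio of its genes to their geometric mean.

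The labelled lineages were checked against marker genes. COLO 201 expressed 6 of 8 colon epithelial markers at a mean of 1 TPM or more, with CDX1 and CDX2 below that. H1975 expressed 4 of 8 lung markers, NKX2-1, NAPSA, FOXA2 and KRT7, while SFTPC and SCGB1A1 were at 0. COLO 201 also expressed 2 of the 8 lung markers, FOXA2 and KRT7, and H1975 expressed 1 of the 8 colon markers, EPCAM. Those 3 genes therefore do not separate the 2 lineages here. RKO expressed 2 of 8 colon markers, CDX2 and EPCAM, and VIL1, KRT20 and GPA33 were at 0, so most colon markers were low or absent there. In COLO 201 the leukocyte list, carried by CD14 and LYZ, summed to 594 to 626 TPM with doxycycline and 1219 to 1223 TPM with vehicle, while HBB was at 0. Its fibroblast and endothelial list, with CAV1 as the one gene of 13 averaging 1 TPM or more, summed to 12.5 to 13.9 TPM with doxycycline and 32.5 to 35.4 TPM with vehicle. In H1975 the fibroblast and endothelial list summed to 778 to 877 TPM with doxycycline and 952 to 1070 TPM with vehicle, with DCN and CLDN5 at 0. The part of these markers in the changes below was not tested, and in bulk RNA fewer cells of a kind and less RNA per cell cannot be told apart.

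Many of these genes are known to be driven through the ER stress response element (ERSE), bound by ATF6 with NF-Y. The sites shown mark members with an exact match to its letters near a start. Forms of the element that depart from those letters were not searched, so a member without a match may still hold one. RefSeq promoters on GRCh38.p14, from 250 bases before to 50 bases after each start, were available for 37 of the 41 genes, with 45 starts. ERSE was searched as CCAAT, 9 bases, CCACG, and its second form, ERSE-II, as ATTGG, 1 base, CCACG, on both strands. ERSE stood in 11 of the 45 member promoters (24.4%) and in 27 of all 35116 promoters (0.0769%), and ERSE-II in 3 (6.67%) and 19 (0.0541%). The member promoters are counted within all promoters, and the shares are descriptions that were not tested. The sites are written 5′ to 3′ along the strand that reads as the element, with its fixed letters in capitals.
HSPA5 (chr9:125241391-125241409): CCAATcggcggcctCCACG
HSP90B1, far site (chr12:103930216-103930234): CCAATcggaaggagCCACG
HSP90B1, near site (chr12:103930321-103930339): CCAATcgcgccgcaCCACG
CALR (chr19:12938384-12938402): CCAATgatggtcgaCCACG
CANX (chr5:179698778-179698796): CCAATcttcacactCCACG
CRELD2 (chr22:49918554-49918572): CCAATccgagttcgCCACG
PDIA6 (chr2:10812853-10812871): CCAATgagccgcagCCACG
ERO1LB (chr1:236282183-236282201): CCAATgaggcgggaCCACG
SERP1 (chr3:150546710-150546728): CCAATtcgctgtctCCACG
XBP1 (chr22:28800603-28800621): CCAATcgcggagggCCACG
HERPUD1, ERSE-II (chr16:56932025-56932035): ATTGGgCCACG
HYOU1, ERSE-II, far site (chr11:119057380-119057390): ATTGGaCCACG
SDF2L1, ERSE-II (chr22:21642114-21642124): ATTGGtCCACG

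HYOU1 held a further ERSE-II of the same letters nearer its start, and the CANX site fell in the windows of 3 of its starts. The XBP1-type letters TGACGTGG, which contain the shorter core ACGTG, stood in 2 of 45 member promoters (4.44%) and 256 of all promoters (0.729%), and the core in 19 (42.2%) and 7518 (21.4%). PDIA4 held neither form of ERSE in its window, which says only that these letters were not found there. HSP90B1, with a pair of sites, and HSPA5 are shown over the 250 bases before the start, written on the strand of the gene with the elements in capitals.
HSP90B1 upstream bases (chr12:103930160-103930409, plus strand): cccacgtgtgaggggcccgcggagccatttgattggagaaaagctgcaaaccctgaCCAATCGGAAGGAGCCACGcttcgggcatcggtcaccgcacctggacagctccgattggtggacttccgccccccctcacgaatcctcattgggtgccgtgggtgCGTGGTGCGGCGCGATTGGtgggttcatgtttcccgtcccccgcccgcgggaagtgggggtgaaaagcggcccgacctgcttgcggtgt
HSPA5 upstream bases (chr9:125241344-125241593, minus strand): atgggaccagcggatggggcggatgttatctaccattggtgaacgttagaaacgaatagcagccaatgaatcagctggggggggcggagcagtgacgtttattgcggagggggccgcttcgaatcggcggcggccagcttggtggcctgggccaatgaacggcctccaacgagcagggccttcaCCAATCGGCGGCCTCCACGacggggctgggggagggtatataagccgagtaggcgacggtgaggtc

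In COLO 201 most of the genes of this group that moved were lower with doxycycline, in H1975 most of those that moved were higher, and in RKO all those that passed were lower. In COLO 201, 40 members were tested (DERL3 was under the minimum mean of 1 TPM), 5 rose and 18 fell, where 45.9% of all tested genes rose and 15.0% fell. The median change was -0.10 over the members and 0.12 over all genes. After rescaling the all-gene median was -0.01 and the members' median -0.23, with 4 members higher and 29 lower, against 27.3% and 29.7% of all genes. In H1975, 40 members were tested (ERO1LB was under the minimum), 8 rose and 2 fell, against 23.9% and 14.6% of all genes, so the share that rose was close to the background. The median there was 0.12 over the members and 0.06 over all genes. After rescaling 9 members were higher and 2 lower in H1975, against 21.2% and 18.5% of all genes. With small noncoding and mitochondrially encoded genes removed, 6 of 40 members were higher and 4 lower. On that scale 2227 of all 12536 genes were higher and 2407 lower, so the upward balance of the members was narrower there.

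In RKO, 39 members were tested (DERL3 and EDEM2 were under the minimum), 7 fell and 0 rose by limma, where 16.1% of all genes fell and 2.09% rose. At an unadjusted p under 0.05 the counts were 12 lower and 0 higher. At that threshold 3200 of all 10551 tested genes were lower and 408 higher, so the share of members was near the background. The medians were -0.30 over the members and -0.26 over all genes, so a typical gene also stood lower and the share of members that fell was near the background. Without vehicle column 1 and with the other 5 columns rescaled, 13 members were higher and 10 lower, against 29.1% and 29.8% of all genes, and the medians were 0.03 and 0.0028. The count of members that fell was 6 without vehicle column 1 and no rescaling, and 3 without doxycycline column 1. Over the 3 lines, 12 members passed in no line, 20 in 1 line, 7 in 2 lines and 2, MBTPS1 and CALR, in all 3. The same count was not made over all genes, so these numbers have no background and are a description only.

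**Figure D1:**
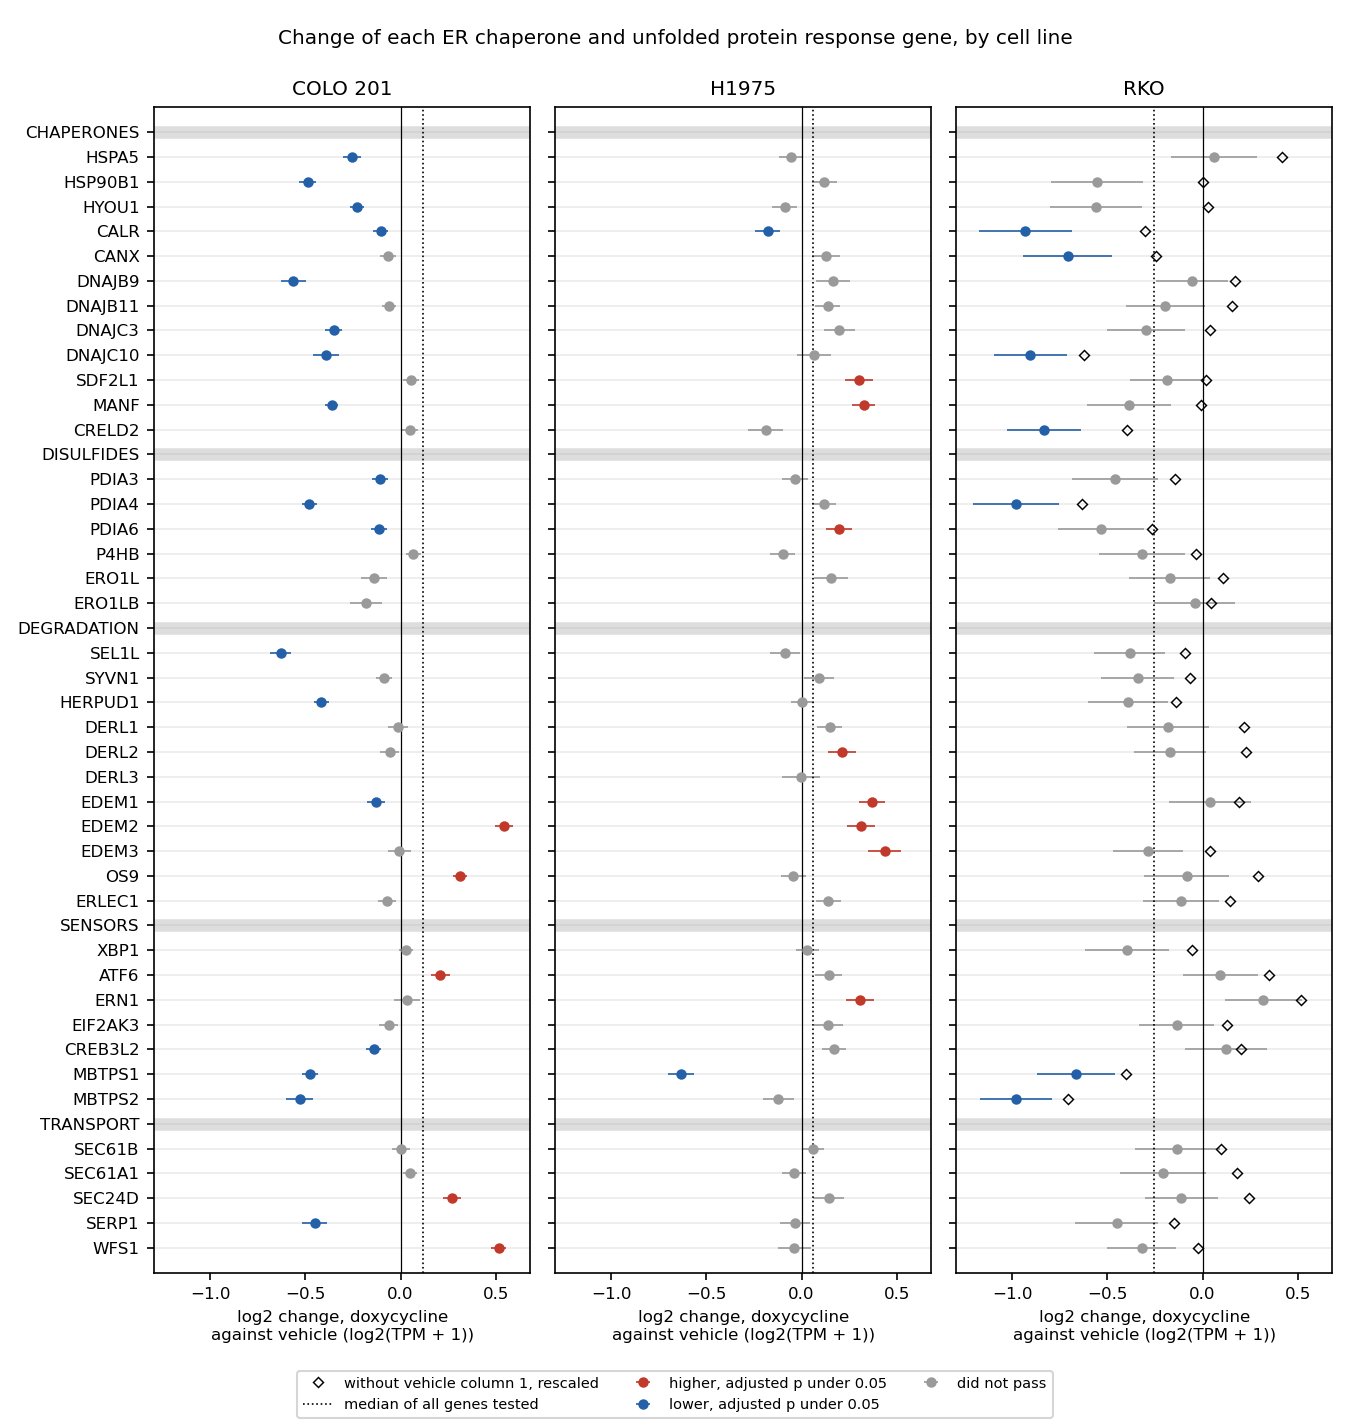
Change of each of the 41 genes in COLO 201, H1975 and RKO, doxycycline minus vehicle in log2(TPM + 1), ordered by role; points are limma estimates with their standard errors, n = 3 columns per arm, coloured by the adjusted p, and dotted lines mark the median of all tested genes. Open diamonds in RKO are the changes without vehicle column 1 after rescaling. In COLO 201, 18 genes lie to the left in blue and 5 to the right in red, and MBTPS1 is blue in every panel.

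Of the 12 ER chaperones, 8 passed as lower in COLO 201, with a median of -0.24, where 15.0% of all genes fell. After rescaling 10 of 12 were lower there, against 29.7% of all genes. HSPA5 (chr9:125234853-125241330, minus strand), the Hsp70 chaperone BiP that also holds the stress sensors inactive, had 1487, 1376 and 1391 TPM in the doxycycline columns, against 1670.5, 1712 and 1691 TPM in the vehicle columns in COLO 201. All its doxycycline columns lay below all vehicle columns, and the change was -0.25 ± 0.04 (adjusted p = 3.6e-04). HSP90B1 (chr12:103930107-103953645, plus strand), the ER form of Hsp90 also called GRP94, had 974, 971 and 916 TPM in the doxycycline columns, against 1351, 1350.3 and 1313 TPM in the vehicle columns, with no overlap, a change of -0.49 ± 0.04 (adjusted p = 1.1e-06). HYOU1, the nucleotide exchange factor of BiP, fell by a smaller amount (-0.23, adjusted p = 2.4e-04).

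Of the 4 J-domain partners of BiP, DNAJB9, DNAJC3 and DNAJC10 fell in COLO 201 and DNAJB11 did not pass. DNAJB9, also called ERdj4, had 11.2, 12.3 and 9.95 TPM in the doxycycline columns, against 17.3, 16.8 and 16.6 TPM in the vehicle columns, and fell (-0.56 ± 0.07, adjusted p = 1.8e-05). DNAJC3, known as p58IPK, had 169, 178 and 160.3 TPM in the doxycycline columns, against 217, 222 and 208 TPM in the vehicle columns and fell as well (-0.35 ± 0.05, adjusted p = 3.2e-05). In both genes the arms did not overlap. DNAJC10, a reductase with a J domain known as ERdj5, had 8.86, 9.35 and 7.87 TPM in the doxycycline columns, against 12.1, 12.1 and 10.9 TPM in the vehicle columns, and its arms were also apart (-0.39 ± 0.07, adjusted p = 3.6e-04). MANF, a small secreted ER protein that binds BiP, had 304, 299 and 306 TPM in the doxycycline columns, against 391, 388 and 391 TPM in the vehicle columns. Its columns differed by a few TPM within an arm, and it fell (-0.36 ± 0.04, adjusted p = 3.2e-06). DNAJB11, which is ERdj3, and its partner SDF2L1 did not pass (-0.06 and 0.06), and neither did CANX and CRELD2 (-0.06 and 0.05). After rescaling DNAJB11 and CANX passed as lower (-0.19 and -0.20, adjusted p = 0.0032 and 0.0015).

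In H1975 the same 12 chaperones gave 2 higher and 1 lower, against 23.9% and 14.6% of all genes, with a median of 0.12. MANF had 191, 191 and 191 TPM in the doxycycline columns, against 150.3, 156 and 151 TPM in the vehicle columns there. Every doxycycline column was above every vehicle column, and MANF rose (0.33 ± 0.06, adjusted p = 9.0e-04), the opposite of its fall in COLO 201. SDF2L1, a partner of DNAJB11, had 45.6, 50.5 and 42.8 TPM in the doxycycline columns, against 37.5, 36.6 and 38.0 TPM in the vehicle columns and also rose (0.30 ± 0.07, adjusted p = 0.006). HSPA5 had 585, 575 and 639.5 TPM in the doxycycline columns, against 602, 640.3 and 627 TPM in the vehicle columns, in overlapping ranges, and did not pass (-0.06, adjusted p = 0.51). DNAJC10 overlapped too, with 20.5, 19.3 and 23.8 TPM in the doxycycline columns, against 18.3, 22.0 and 20.1 TPM in the vehicle columns (0.07, adjusted p = 0.59), and the remaining J-domain partners were between 0.14 and 0.20 without passing.

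Calreticulin, CALR (chr19:12938578-12944489, plus strand), a lectin chaperone of newly made glycoproteins that can also reach the cell surface, was lower with doxycycline in every line. In COLO 201 it had 1271, 1213 and 1259 TPM in the doxycycline columns, against 1326, 1358 and 1341 TPM in the vehicle columns (-0.10 ± 0.04, adjusted p = 0.041). In H1975 it had 1026, 1057 and 955 TPM in the doxycycline columns, against 1069, 1164 and 1208 TPM in the vehicle columns (-0.18 ± 0.07, adjusted p = 0.049). In RKO it had 223, 285 and 252 TPM in the doxycycline columns, against 741, 425 and 354 TPM in the vehicle columns (-0.93 ± 0.24, adjusted p = 0.0082). The arms did not overlap in any line, but the changes were small in the first 2, and vehicle column 1 stood highest in RKO. Without that column the RKO change was -0.62 (adjusted p = 0.044), and with rescaling as well -0.30 (adjusted p = 0.0022), while rescaling with the column kept gave -0.63 (adjusted p = 0.14). The COLO 201 call was lost without vehicle column 1, 2 or 3 or doxycycline column 1 or 2 (adjusted p = 0.0502 to 0.12). The H1975 call was lost without vehicle column 2 or 3 or doxycycline column 1 or 3 (adjusted p = 0.11 to 0.16), and the RKO call without doxycycline column 1 (adjusted p = 0.14).

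In RKO, 4 of 12 chaperones passed as lower, CALR among them, where 16.1% of all genes fell, and 3 did so without vehicle column 1. DNAJC10 had 4.83, 7.43 and 5.78 TPM in the doxycycline columns, against 11.96, 13.1 and 10.9 TPM in the vehicle columns (-0.90 ± 0.19, adjusted p = 0.0015). Its arms did not overlap, and the change without vehicle column 1 was -0.90 (adjusted p = 9.6e-04) and after rescaling as well -0.62 (adjusted p = 3.9e-06). CRELD2, an ER-resident protein induced by stress, had 2.52, 3.76 and 2.62 TPM in the doxycycline columns, against 8.06, 5.41 and 4.92 TPM in the vehicle columns (-0.83 ± 0.19, adjusted p = 0.0034). It was lower in each doxycycline column than in any vehicle column, and the change was -0.65 without vehicle column 1 (adjusted p = 0.0097) and -0.40 with rescaling as well (adjusted p = 4.2e-04). Its call was lost without doxycycline column 1 (adjusted p = 0.073). CANX, the membrane-bound relative of calreticulin, had 101, 149.9 and 122 TPM in the doxycycline columns, against 247, 201 and 163 TPM in the vehicle columns (-0.71 ± 0.23, adjusted p = 0.035). That call was lost without vehicle column 1 or 2 or doxycycline column 1 or 3 (adjusted p = 0.078 to 0.2), and once vehicle column 1 was dropped before rescaling CANX was -0.24 (adjusted p = 0.0038).

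HSPA5 in RKO had 163, 241 and 189.5 TPM in the doxycycline columns, against 198, 197 and 168 TPM in the vehicle columns, and the arms overlapped (0.06 ± 0.23, adjusted p = 0.87). HSPA5 was the only one of the 12 chaperones with a change above 0 there. After rescaling it was 0.36 (adjusted p = 0.022), and with vehicle column 1 also left out 0.42 (adjusted p = 1.2e-04), so it passed as higher on both rescaled sets. DNAJB9 and DNAJB11 passed as higher on the second of them (0.17 and 0.15, adjusted p = 0.03 and 0.02). MANF had 37.6, 49.4 and 38.5 TPM in the doxycycline columns, against 59.8, 55.2 and 49.4 TPM in the vehicle columns and did not pass (-0.39, adjusted p = 0.22). HSP90B1, HYOU1, DNAJC3 and MANF were within 0.05 of 0 once vehicle column 1 was out and the columns rescaled (0.0046, 0.03, 0.04 and -0.01).

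Among the disulfide isomerases and oxidases, PDIA4 changed in both colon lines and PDIA6 moved in opposite directions in COLO 201 and H1975. PDIA4 (chr7:149003062-149028641, minus strand), an isomerase of the PDI family known as ERp72, had 574, 539 and 559 TPM in the doxycycline columns, against 771, 781 and 779 TPM in the vehicle columns in COLO 201. It fell there to 71.7% of the vehicle mean (-0.48 ± 0.04, adjusted p = 7.2e-07), with all doxycycline columns below all vehicle columns. In RKO PDIA4 had 31.6, 45.1 and 37.4 TPM in the doxycycline columns, against 78.8, 78.7 and 68.6 TPM in the vehicle columns. It stood at 50.5% of the vehicle mean and fell (-0.98 ± 0.22, adjusted p = 0.0028), with -0.95 without vehicle column 1 (adjusted p = 0.0014) and -0.63 with rescaling as well (adjusted p = 1.4e-06). In H1975 PDIA4 had 293, 311 and 291 TPM in the doxycycline columns, against 263, 282 and 279 TPM in the vehicle columns. Here the doxycycline columns were all above the vehicle columns, by less than the test requires (0.12 ± 0.06, adjusted p = 0.15).

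PDIA6 (chr2:10783391-10837977, minus strand) had 303, 305 and 291 TPM in the doxycycline columns, against 325, 336 and 311 TPM in the vehicle columns in COLO 201. The arms were apart by a few TPM and it fell (-0.11 ± 0.04, adjusted p = 0.032). In H1975 it had 214, 211 and 230.1 TPM in the doxycycline columns, against 177, 201 and 193 TPM in the vehicle columns, with every doxycycline column above every vehicle column, and rose (0.20 ± 0.07, adjusted p = 0.035). In RKO it had 35.3, 53.1 and 40.9 TPM in the doxycycline columns, against 58.0, 68.7 and 59.5 TPM in the vehicle columns, all lower with doxycycline, without passing (-0.53 ± 0.23, adjusted p = 0.096), while it passed after rescaling (-0.24, adjusted p = 0.038) and again once vehicle column 1 was dropped before rescaling (-0.26, adjusted p = 0.0015). The COLO 201 call was lost without vehicle column 1 or 2 or doxycycline column 1 or 3 (adjusted p = 0.055 to 0.14), and rescaling made it -0.24 (adjusted p = 2.6e-04). The H1975 call was lost without vehicle column 1 or 3 or doxycycline column 1 or 3 (adjusted p = 0.078 to 0.14), and with mitochondrially encoded and small noncoding genes removed (0.14, adjusted p = 0.062).

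PDIA3, the isomerase ERp57 that works with calnexin and calreticulin, fell slightly in COLO 201 (-0.11, adjusted p = 0.036), and that call was lost without vehicle column 1 or 3 or doxycycline column 2 or 3 (adjusted p = 0.054 to 0.12). It did not pass in H1975 or RKO (-0.03 and -0.46). P4HB, the founding protein disulfide isomerase, passed in no line (0.07 in COLO 201, -0.10 in H1975 and -0.32 in RKO). The oxidase ERO1L, listed as ERO1A in the RKO table, and its relative ERO1LB, listed there as ERO1B, reoxidise the isomerases, and neither passed where tested. After rescaling ERO1L and ERO1LB were lower in COLO 201 (-0.27 and -0.28, adjusted p = 0.0043 and 0.0083). PDIA6 and PDIA3 share exon positions with genes on the opposite strand. So do other members, among them CALR, CANX, HSP90B1, HYOU1, CRELD2, DNAJB9, DERL1, EDEM1 and OS9. Some share them with genes on the same strand, such as DNAJC10 with RPL31P15 and SYVN1 with FAU. PDIA3, HSPA5, XBP1 and ERLEC1 have named pseudogenes. Strand use in the counting is not given in the sources used here, so reads of such pairs could be mixed.

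**Figure D2:**
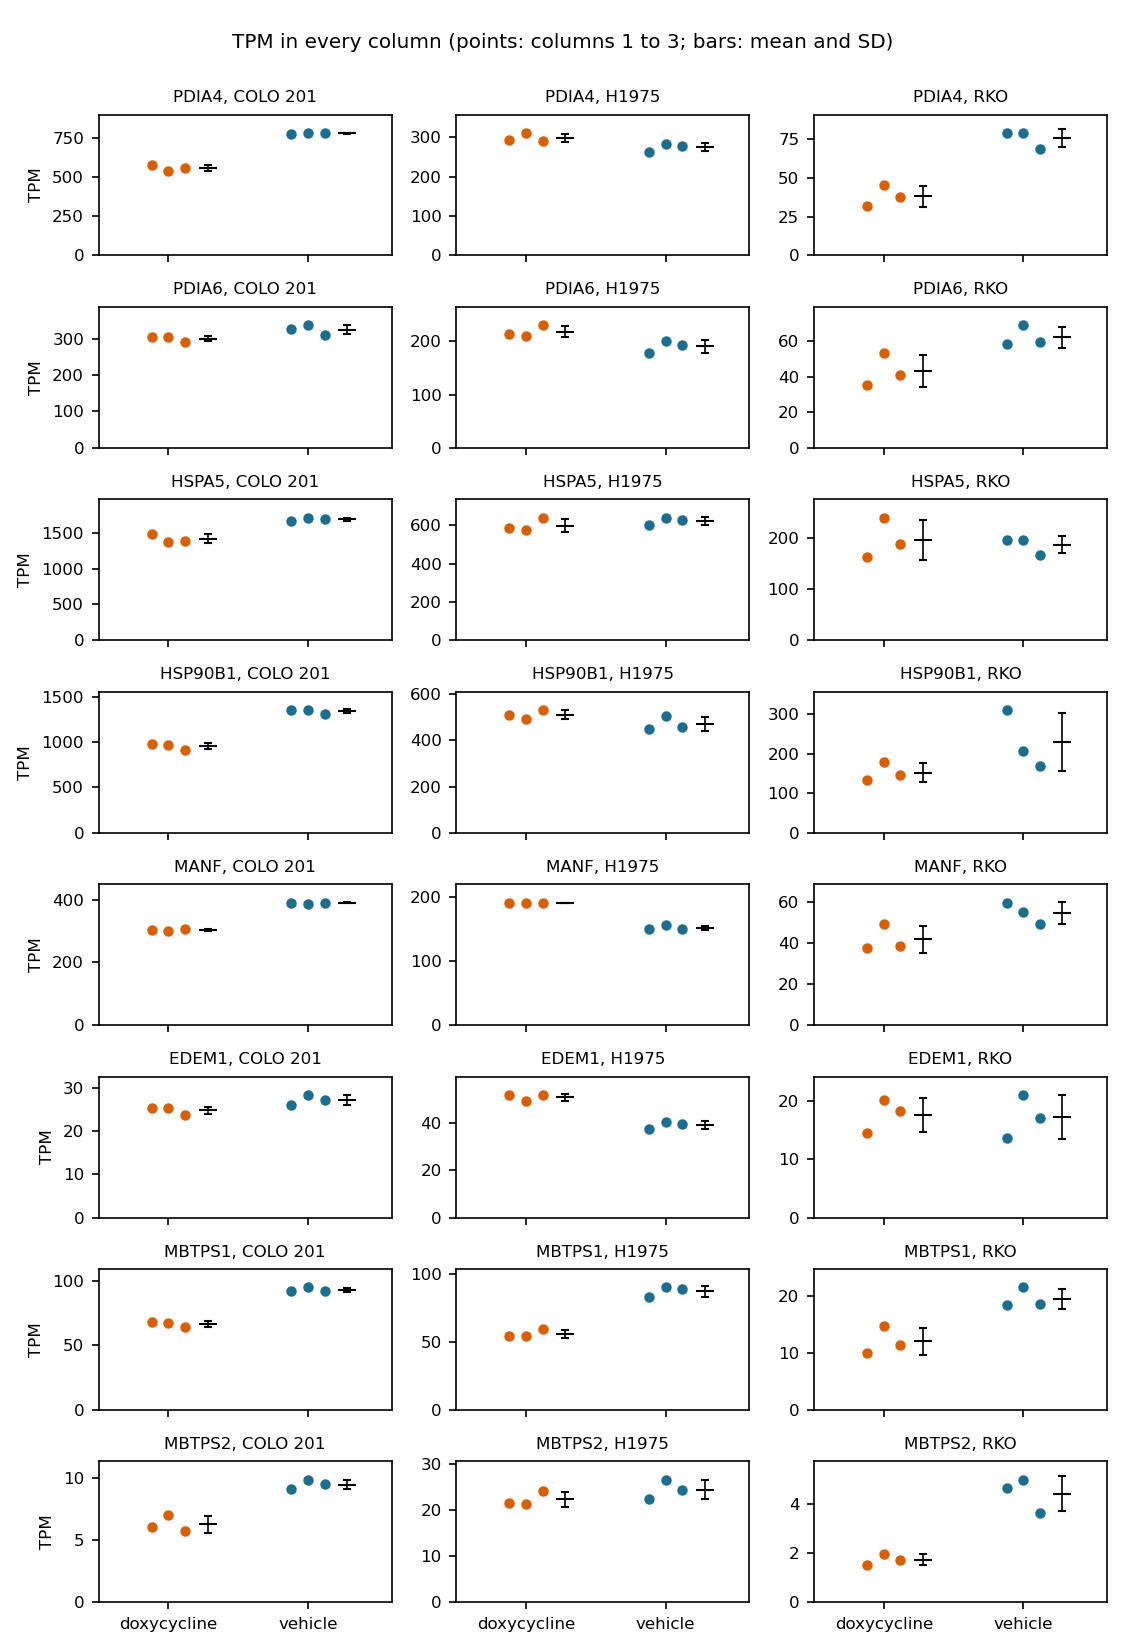
TPM of 8 genes in every column of COLO 201, H1975 and RKO, with doxycycline columns in orange and vehicle columns in blue, columns 1 to 3 from left to right, and the mean with its SD as a black bar (n = 3); every axis starts at 0 TPM. MBTPS1 is lower with doxycycline in each line, while MANF is lower in COLO 201 and higher in H1975.

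The degradation factors did not move as one in COLO 201, where 2 of 10 rose and 3 fell, or 2 and 8 after rescaling, against 45.9% and 15.0% of all genes, or 27.3% and 29.7% after rescaling. SEL1L (chr14:81471549-81533861, minus strand), the adaptor of the membrane ubiquitin ligase SYVN1, had 42.3, 46.2 and 40.9 TPM in the doxycycline columns, against 67.3, 71.2 and 63.2 TPM in the vehicle columns. It was at 64.1% of the vehicle mean, the largest fall of the 40 tested members in COLO 201 (-0.63 ± 0.06, adjusted p = 1.3e-06). HERPUD1, which brings substrates to that complex, had 189.7, 192 and 184 TPM in the doxycycline columns, against 244, 261 and 252 TPM in the vehicle columns, also without overlap (-0.42 ± 0.04, adjusted p = 2.5e-06). SYVN1 itself did not pass (-0.09, adjusted p = 0.085), and was -0.22 after rescaling (adjusted p = 4.3e-04). OS9, a lectin that hands glycoproteins to SEL1L, had 158, 152 and 159 TPM in the doxycycline columns, against 122, 126 and 128 TPM in the vehicle columns. It rose (0.31 ± 0.04, adjusted p = 2.1e-05), with every doxycycline column above every vehicle column. ERLEC1, the other lectin of that step, did not pass (-0.07).

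The EDEM proteins, which trim mannose from misfolded glycoproteins, include the members with the largest rises in H1975, where EDEM1, EDEM2 and EDEM3 all passed as higher. EDEM3 had 47.3, 44.7 and 57.0 TPM in the doxycycline columns, against 34.2, 38.7 and 36.2 TPM in the vehicle columns (0.44 ± 0.09, adjusted p = 0.0017). EDEM1 had 51.8, 49.3 and 51.9 TPM in the doxycycline columns, against 37.4, 40.4 and 39.9 TPM in the vehicle columns (0.37 ± 0.07, adjusted p = 7.7e-04). EDEM2 had 42.0, 41.7 and 37.9 TPM in the doxycycline columns, against 31.0, 31.4 and 35.1 TPM in the vehicle columns (0.31 ± 0.07, adjusted p = 0.0051). None of the 3 genes had overlapping arms in H1975. In COLO 201 EDEM2 rose too, with 35.4, 34.7 and 37.5 TPM in the doxycycline columns, against 24.2, 25.2 and 23.7 TPM in the vehicle columns (0.54 ± 0.05, adjusted p = 1.2e-06). EDEM1 instead fell there, with 25.3, 25.4 and 23.9 TPM in the doxycycline columns, against 26.1, 28.4 and 27.4 TPM in the vehicle columns (-0.13 ± 0.05, adjusted p = 0.036), a small difference whose call was lost without vehicle column 2 or 3 or doxycycline column 1 or 3 (adjusted p = 0.056 to 0.14). EDEM3 was level in COLO 201 as deposited (-0.01 ± 0.06, adjusted p = 0.94), and passed as lower there after rescaling (-0.13, adjusted p = 0.045). In RKO EDEM1 had 14.5, 20.2 and 18.3 TPM in the doxycycline columns, against 13.6, 21.1 and 17.1 TPM in the vehicle columns, which overlapped (0.04, adjusted p = 0.91), and EDEM2 was near 0 in all columns, with 0.138, 0.190 and 0.115 TPM with doxycycline and 0.194, 0.158 and 0.148 TPM with vehicle.

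The derlins, channel-like membrane proteins of the exit route, gave 1 call on the deposited values, DERL2 in H1975 (0.21, adjusted p = 0.034). That call was lost without vehicle column 1 or 3 or doxycycline column 1 or 3 (adjusted p = 0.059 to 0.14). DERL1 passed in no line as deposited (-0.01, 0.15 and -0.18 in COLO 201, H1975 and RKO). After rescaling DERL1 and DERL2 passed as lower in COLO 201 (-0.14 and -0.19, adjusted p = 0.019 and 0.0023). DERL3 was low throughout, with 0.751, 0.760 and 0.575 TPM in the doxycycline and 1.07, 1.12 and 1.37 TPM in the vehicle columns of COLO 201. In RKO no degradation factor passed as deposited, where 16.1% of all genes fell and 2.09% rose. With vehicle column 1 out and rescaling, 5 of 9 were higher, among them OS9 (0.29), DERL2 (0.23) and DERL1 (0.22). HERPUD1 was lower on that scale (-0.14, adjusted p = 0.027), on which 29.1% of all genes were higher and 29.8% lower.

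Of the proteases that activate ATF6, MBTPS1 fell in all 3 lines and MBTPS2 in COLO 201 and RKO, while on the deposited values the messages of the sensors rose or did not pass. MBTPS1 (chr16:84053761-84116906, minus strand), the site-1 protease that cleaves ATF6 and the sterol regulators of the SREBP family in the Golgi, is known to act before MBTPS2. In COLO 201 it had 68.1, 67.1 and 64.3 TPM in the doxycycline columns, against 91.9, 94.7 and 91.8 TPM in the vehicle columns (-0.48 ± 0.04, adjusted p = 8.3e-07). In H1975 it had 54.2, 54.2 and 59.5 TPM in the doxycycline columns, against 82.7, 90.0 and 89.0 TPM in the vehicle columns (-0.63 ± 0.07, adjusted p = 1.3e-05). In RKO it had 9.93, 14.7 and 11.4 TPM in the doxycycline columns, against 18.4, 21.5 and 18.5 TPM in the vehicle columns (-0.67 ± 0.20, adjusted p = 0.023). Doxycycline columns lay below vehicle columns without overlap in each line, at 71.6%, 64.1% and 61.7% of the vehicle mean. In H1975 it was 1 of only 2 members that fell. The RKO change was -0.70 without vehicle column 1 (adjusted p = 0.018) and -0.40 with rescaling as well (adjusted p = 5.4e-05), and the call on the deposited values was lost without vehicle column 2 or doxycycline column 1 or 3 (adjusted p = 0.1 to 0.15).

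MBTPS2 (chrX:21839636-21885424, plus strand), the site-2 protease that makes the second cut, fell in the colon lines. In COLO 201 it had 6.04, 7.01 and 5.70 TPM in the doxycycline columns, against 9.05, 9.81 and 9.45 TPM in the vehicle columns (-0.53 ± 0.07, adjusted p = 4.8e-05). In RKO it had 1.51, 1.96 and 1.72 TPM in the doxycycline columns, against 4.66, 4.97 and 3.61 TPM in the vehicle columns (-0.98 ± 0.19, adjusted p = 5.9e-04), and -0.71 without vehicle column 1 after rescaling (adjusted p = 5.9e-06). The arms were apart in both lines. In H1975 it had 21.5, 21.3 and 24.1 TPM in the doxycycline columns, against 22.4, 26.6 and 24.3 TPM in the vehicle columns, in overlapping ranges, and did not pass (-0.12, adjusted p = 0.24). The GENCODE annotation places the gene YY2 within MBTPS2 on the same strand, so some reads could belong to either.

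ERN1, which encodes IRE1, had 20.8, 19.1 and 20.4 TPM in the doxycycline columns, against 15.1, 16.6 and 16.5 TPM in the vehicle columns in H1975 and rose (0.31 ± 0.07, adjusted p = 0.0051), with no overlap. In RKO all 3 doxycycline columns were above the vehicle columns without passing (0.32, adjusted p = 0.26), and once vehicle column 1 was dropped before rescaling it passed at 0.52 (adjusted p = 1.3e-05). ATF6 rose in COLO 201 (0.21, adjusted p = 0.0034) and lost that call on rescaling (0.08, adjusted p = 0.095). In H1975 it did not pass (0.14, adjusted p = 0.13). In RKO it did not pass either (0.09, adjusted p = 0.76), but was higher after rescaling (0.37, adjusted p = 0.0066) and once vehicle column 1 was dropped before rescaling (0.35, adjusted p = 2.0e-04). EIF2AK3, which encodes PERK, passed in no line (-0.06, 0.14 and -0.14 in COLO 201, H1975 and RKO), although it was -0.19 in COLO 201 after rescaling (adjusted p = 0.0019). XBP1 had 292, 281 and 284 TPM in the doxycycline columns, against 279, 282 and 279 TPM in the vehicle columns in COLO 201 and passed in no line (0.03, 0.03 and -0.40). In COLO 201 XBP1 was -0.10 after rescaling (adjusted p = 0.032). Gene-level TPM does not separate its spliced from its unspliced message. CREB3L2, an ER-bound transcription factor released by the same proteases, fell in COLO 201 (-0.14, adjusted p = 0.007) and was 0.17 in H1975 (adjusted p = 0.0503), where it passed after rescaling (0.13, adjusted p = 0.048).

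Among the translocation, export and membrane proteins, WFS1, the ER membrane glycoprotein wolframin, had 163, 159 and 158 TPM in the doxycycline columns, against 108, 116 and 111 TPM in the vehicle columns in COLO 201. It rose to 143% of the vehicle mean (0.52 ± 0.04, adjusted p = 4.1e-07), and the arms were far apart. SEC24D, a cargo-binding subunit of the COPII coat, rose there by less (0.27, adjusted p = 3.0e-04). SERP1, a small protein of the translocon also called RAMP4, had 44.1, 51.2 and 42.7 TPM in the doxycycline columns, against 62.1, 66.8 and 60.3 TPM in the vehicle columns and fell (-0.45 ± 0.06, adjusted p = 6.9e-05). SERP1 overlaps exons of EIF2A and SELENOT on the opposite strand. The channel subunits SEC61A1 and SEC61B passed in no line as deposited, and were 0.05 and 0.0036 in COLO 201, -0.04 and 0.06 in H1975 and -0.21 and -0.13 in RKO. No gene of this role passed in H1975 or RKO as deposited.

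Differences between the lines were tested directly as contrasts of the changes within each table, over genes matched by current symbol. Of 39 members in the H1975 and COLO 201 contrast, 20 changed more upward in H1975 and 3 more upward in COLO 201, against 14.0% and 24.6% of all genes. By role, 8 of 12 chaperones, 2 of 5 isomerases and oxidases, 6 of 10 degradation factors, 3 of 7 sensors and factors and 1 of 5 translocation and export genes were among the 20. DNAJB9 (0.73 ± 0.12, adjusted p = 2.1e-04) and MANF (0.69 ± 0.06, adjusted p = 1.7e-07) had the widest gaps. PDIA4 (0.60 ± 0.07, adjusted p = 4.2e-06) and PDIA6 (0.31 ± 0.08, adjusted p = 0.0049) differed as well. After rescaling those values were 0.81, 0.78, 0.69 and 0.40. WFS1 (-0.55 ± 0.10, adjusted p = 3.2e-04), OS9 (-0.35 ± 0.07, adjusted p = 0.0013) and EDEM2 (-0.23 ± 0.09, adjusted p = 0.044) were the 3 with a higher change in COLO 201, and EDEM2 no longer passed after rescaling (-0.14, adjusted p = 0.19). MBTPS1 did not differ by this test (-0.16, 95% interval -0.31 to 0.00028), and neither did CALR (-0.07, -0.24 to 0.09).

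**Figure D3:**
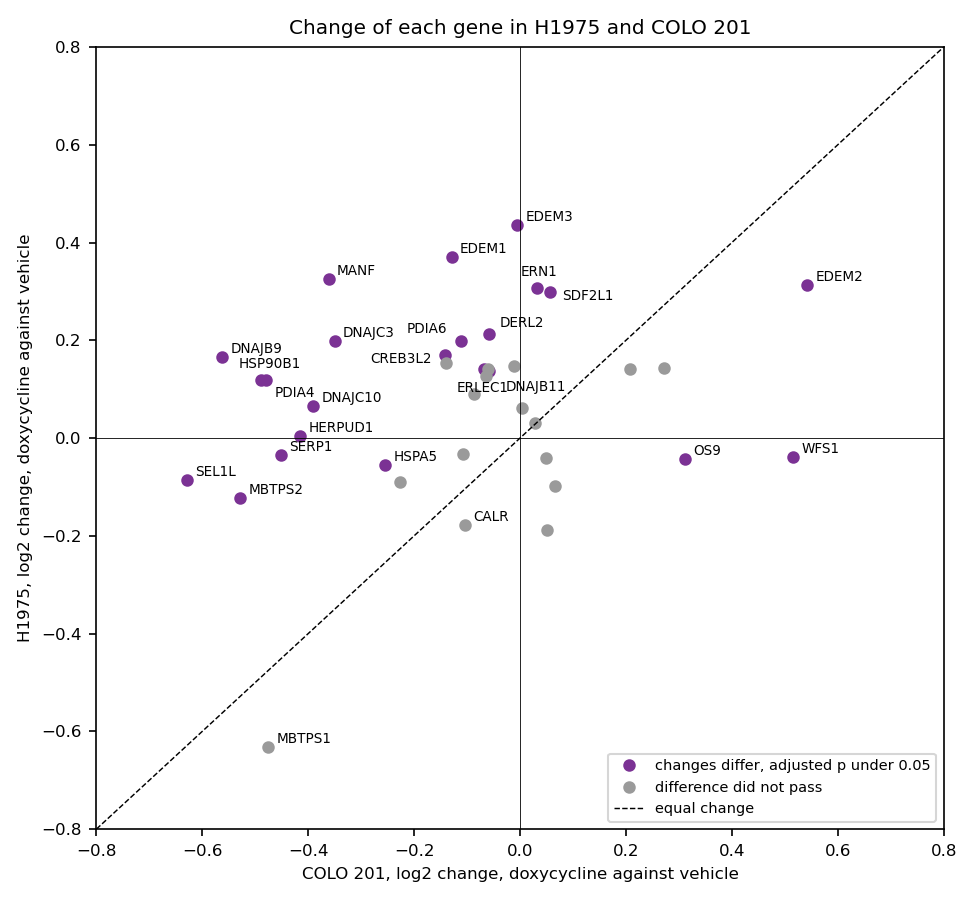
Change of 39 genes in COLO 201 (horizontal axis) and H1975 (vertical axis), doxycycline minus vehicle in log2(TPM + 1); purple points are genes whose changes differed between the lines (joint limma fit, adjusted p under 0.05) and the dashed line marks equal change. In all, 20 purple points lie above the line and 3, EDEM2, OS9 and WFS1, below it, while MBTPS1 is low on both axes.

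The contrast of RKO with COLO 201 depended on the scale. RKO minus COLO 201 gave 1 member higher, DNAJB9, and 7 lower as deposited, against 2.29% and 35.9% of all genes. Without RKO vehicle column 1 and with rescaling the counts were 24 and 2, against 28.5% and 27.6%. The lower ones on that scale were WFS1 (-0.41) and CRELD2 (-0.32), while PDIA4, which was lower in RKO as deposited (-0.50, adjusted p = 0.044), was -0.02 there (adjusted p = 0.8). The count of 8 fell to 2 without COLO 201 vehicle column 1 or doxycycline column 1 or RKO doxycycline column 3, and was 17 without RKO doxycycline column 2. RKO minus H1975 gave 0 higher and 7 lower of 38 by limma at the adjusted threshold, against 1.58% and 21.4% of all genes. At an unadjusted p under 0.05 the members gave 0 and 16, a count that was not made over all genes and so has no background. Without vehicle column 1 after rescaling, 6 were higher and 7 lower at the adjusted threshold, against 18.5% and 25.1%. PDIA4 (-1.10 ± 0.19, adjusted p = 0.0015; -0.71 on the other scale) and DNAJC10 (-0.97 ± 0.20, adjusted p = 0.0048; -0.65) were lower in RKO on both, as were the other 5 of the 7, MBTPS2 (-0.55 on the other scale, adjusted p = 4.0e-04), PDIA6 (-0.42, 2.9e-04), EDEM3 (-0.36, 0.01), CANX (-0.33, 0.0054) and MANF (-0.29, 0.008). The count of 7 was 20 without RKO doxycycline column 2, 3 without RKO doxycycline column 3 and 4 without H1975 vehicle column 1 or doxycycline column 3.

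Summed over the 41 genes, the messages took 1.20%, 1.20% and 1.16% of TPM in the doxycycline columns of COLO 201, against 1.42%, 1.40% and 1.39% in its vehicle columns, with small noncoding and mitochondrially encoded genes left out of the total. In H1975 the share was 0.779%, 0.769% and 0.780% with doxycycline and 0.789%, 0.817% and 0.788% with vehicle. In RKO it was 0.665%, 0.675% and 0.670% with doxycycline and 0.930%, 0.712% and 0.689% with vehicle, where vehicle column 1 was highest. With those genes left out, the doxycycline columns were below the vehicle columns in each line, most widely in COLO 201. As a share of all deposited TPM the arms stayed apart only in COLO 201. In H1975 that share was 0.644%, 0.642% and 0.655% with doxycycline and 0.611%, 0.663% and 0.650% with vehicle, which overlapped. RKO overlapped too, with 0.195% in doxycycline column 2 and 0.193% in vehicle column 3. CALR and HSPA5 had the highest mean TPM of the members in the doxycycline columns of each line, and so weigh most in these sums.

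**Figure D4:**
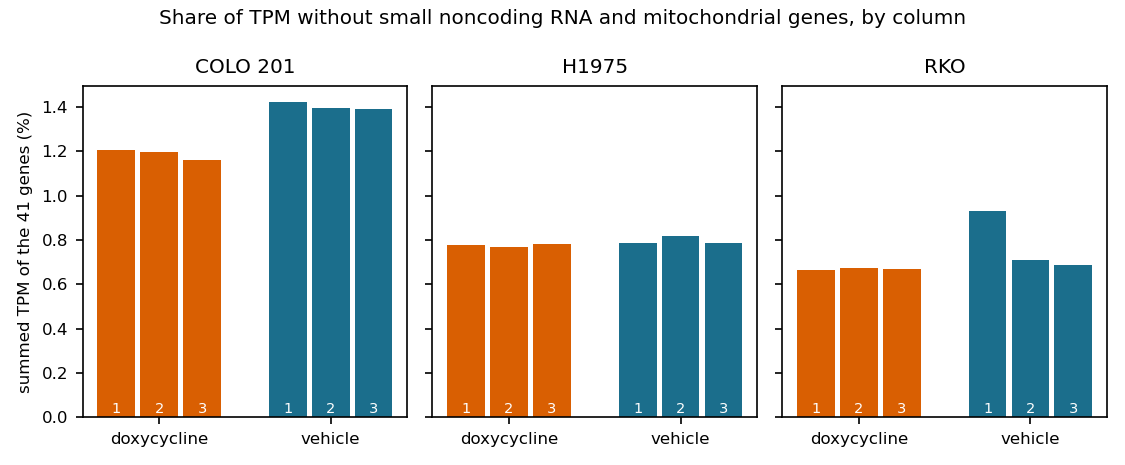
Summed TPM of the 41 genes as a percentage of TPM without small noncoding RNA and mitochondrially encoded genes, for each column (numbered at the base of its bar) of COLO 201, H1975 and RKO, doxycycline in orange and vehicle in blue. The COLO 201 doxycycline bars stand at 1.16% to 1.20% and its vehicle bars at 1.39% to 1.42%, and RKO vehicle column 1 stands above all other RKO columns.

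The members with an exact match to ERSE or ERSE-II near a start numbered 12, and 25 had a promoter with no exact match to either. In COLO 201, 7 of the 12 fell (median -0.15), and of the 25 10 fell and 4 rose (median -0.07), where 15.0% of all genes fell and 45.9% rose. After rescaling, 10 of the 12 and 17 of the 25 were lower there, against 29.7% of all genes. In H1975, 2 of 11 tested rose and 1 fell, with a median of 0.0047, and 6 of 25 rose and 1 fell, with a median of 0.14. Of all genes tested in H1975, 23.9% rose and 14.6% fell. In RKO the medians were -0.49 and -0.20, and -0.10 and 0.10 without vehicle column 1 after rescaling. The medians are descriptions, and the difference between the groups was not tested.

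Other genes of the pathway were counted from lists set up for this work, and the all-gene shares given above are the background for them. The PERK and ATF4 branch raises genes of amino acid supply and redox control, and ends its own signal. In COLO 201, 4 rose and 6 fell of 16 tested, with 2 higher and 11 lower after rescaling. In H1975, 7 rose and 2 fell of 17. The RKO columns gave 5 higher and 2 lower of 16, with 10 higher and 4 lower without vehicle column 1 after rescaling. TRIB3, a pseudokinase induced by that branch, averaged 55.9 TPM with doxycycline and 16.3 TPM with vehicle in RKO (1.73, adjusted p = 9.3e-06), and the change was 1.83 without vehicle column 1 after rescaling (adjusted p = 2.4e-08). PPP1R15A, the phosphatase subunit that reverses the PERK signal, rose in H1975 (0.62, adjusted p = 1.7e-05). DDIT4, an inhibitor of mTORC1 signalling induced by stress, fell in COLO 201 (-0.98, adjusted p = 2.5e-07), H1975 (-0.67, adjusted p = 4.8e-06) and RKO (-1.29, adjusted p = 0.0055). In RKO the DDIT4 change was -0.34 without vehicle column 1 after rescaling (adjusted p = 0.0032). In each of the other lists named here, 0 genes rose in RKO by limma, and 0 were higher at an unadjusted p under 0.05.

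Further degradation genes cover the ligases, the p97 motor and its cofactors. In COLO 201, 8 rose and 4 fell of 21 tested, with 4 higher and 11 lower after rescaling. In H1975, 6 rose and 2 fell of 22. For RKO the counts were 0 higher and 2 lower of 22, with 7 higher and 4 lower without vehicle column 1 after rescaling. NPLOC4, a cofactor of the p97 motor that pulls substrates from the membrane, fell in COLO 201 (-0.68, adjusted p = 1.0e-07), H1975 (-0.73, adjusted p = 5.8e-06) and RKO (-1.09, adjusted p = 4.2e-04). Its RKO change was -0.88 without vehicle column 1 after rescaling (adjusted p = 2.6e-07). The translocon and signal recognition genes bring new chains to the ER. In COLO 201, 7 rose and 8 fell of 22 tested, with 4 higher and 11 lower after rescaling. In H1975, 9 rose and 1 fell of 22. In RKO, 0 rose and 5 fell of 22, with 5 higher and 7 lower without vehicle column 1 after rescaling. SRP9, a protein of the signal recognition particle, averaged 84.4 TPM with doxycycline and 231 TPM with vehicle in COLO 201 (-1.44, adjusted p = 2.8e-08). SRP9 also fell in H1975 (-0.51, adjusted p = 0.0016) and RKO (-2.03, adjusted p = 1.3e-06, and -1.60 without vehicle column 1 after rescaling, adjusted p = 2.4e-07).

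N-glycosylation and calnexin cycle genes changed the balance of their calls with the scale. In COLO 201, 12 rose and 2 fell of 19 tested, with 4 higher and 6 lower after rescaling. In H1975, 3 rose and 0 fell of 20. The RKO columns gave 0 higher and 3 lower of 20, with 1 higher and 8 lower without vehicle column 1 after rescaling. Other disulfide isomerases and oxidoreductases were counted in the same way. In COLO 201, 6 rose and 1 fell of 14 tested, with 3 higher and 7 lower after rescaling. In H1975, 5 rose and 2 fell of 16. For RKO the counts were 0 higher and 2 lower of 13, with 4 higher and 2 lower without vehicle column 1 after rescaling. TMX4, a membrane thioredoxin, fell in COLO 201 (-0.37, adjusted p = 1.0e-04) and RKO (-1.14, adjusted p = 5.9e-05), where it was -0.86 without vehicle column 1 after rescaling (adjusted p = 4.7e-07). Other Hsp70 and folding partners of the ER include prolyl isomerases and cochaperones. In COLO 201, 10 rose and 4 fell of 17 tested, with 8 higher and 4 lower after rescaling. In H1975, 4 rose and 5 fell of 18. In RKO, 0 rose and 5 fell of 18, with 5 higher and 5 lower without vehicle column 1 after rescaling. HSPA13, a microsomal Hsp70, fell in both colon lines (-0.76, adjusted p = 1.9e-07 in COLO 201 and -1.08, adjusted p = 4.2e-04 in RKO), and was -0.82 in RKO without vehicle column 1 after rescaling (adjusted p = 7.1e-06).

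COPII coat and export genes carry folded proteins to the Golgi. In COLO 201, 6 rose and 5 fell of 18 tested, with 4 higher and 9 lower after rescaling. In H1975, 5 rose and 1 fell of 18. The RKO columns gave 0 higher and 4 lower of 18, with 2 higher and 7 lower without vehicle column 1 after rescaling. Other sensors and ER-bound factors include relatives of CREB3L2. In COLO 201, 6 rose and 3 fell of 15 tested, with 2 higher and 7 lower after rescaling. In H1975, 2 rose and 2 fell of 14. For RKO the counts were 0 higher and 2 lower of 13, with 4 higher and 4 lower without vehicle column 1 after rescaling. CREB3L1, which is also cut by MBTPS1 and MBTPS2, averaged 0.268 TPM with doxycycline and 3.31 TPM with vehicle in COLO 201 (-1.76, adjusted p = 2.8e-08), and fell in H1975 (-0.63, adjusted p = 2.4e-05). Cytosolic heat shock chaperones were counted for contrast with those of the ER. In COLO 201, 2 rose and 2 fell of 14 tested, with 1 higher and 9 lower after rescaling. In H1975, 3 rose and 2 fell of 14. In RKO, 0 rose and 11 fell of 13, with 1 higher and 11 lower without vehicle column 1 after rescaling.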

How the data were processed

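The authors deposited 1 table of TPM per cell line, with 6 columns each, from stranded mRNA libraries, per the labels' protocols. The submitters' processing notes name STAR, DESeq2 and the build GRCh38, without versions or parameters. TPM keep no read totals, so the depth per sample is unknown, and no interval that needs it is given. In COLO 201, 28 entries named as dates were left out. Every deposited column was used.

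The test was limma 3.58.1 (R 4.3.3, trended prior, two-sided) applied to log2(TPM + 1), for genes averaging 1 TPM or more across the line's 6 columns, and p-values were adjusted over all of them by Benjamini-Hochberg. Tables were fitted apart, and lines were compared as contrasts of within-table changes in a joint fit. The fit was tested on simulated data. The replicates are columns of cells cultured in triplicate, so p-values measure the spread between these columns. No pairing of same-numbered columns is stated, and the main fit used none. Their deviations from the arm means correlated at -0.012 to 0.29 (RKO), -0.054 to 0.28 (COLO 201) and -0.42 to 0.16 (H1975). For columns of different number the ranges were -0.32 to 0.20, -0.28 to 0.18 and -0.33 to 0.46. These ranges overlap and do not settle whether the columns were paired. Symbols were matched through RefSeq synonyms, and positions are from GENCODE 29. The alternatives tried were median-ratio rescaling, a pseudocount of 0.1 or of 5, a minimum of 5 TPM or none, removal of small noncoding and mitochondrially encoded genes, no trend, the column number as a block, leaving out each column, and leaving out RKO vehicle column 1 with rescaling.

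The members and lists were chosen with earlier results of these data known. Values in every column are given for members that passed with an absolute change of at least 0.3, for those that passed in 2 or more lines, and for HSPA5, PDIA4 and PDIA6; other lists name at most 2 genes per line and direction, those with the smallest adjusted p.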

Additional observations from a re-analysis of the deposited data

Results flagged for a closer look

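The change of a gene differed between lines by the joint fit in 38 cases, all of which rest on contrasts that share the columns of a line. The signed difference, H1975 minus COLO 201, was positive for DNAJB9 (0.73), MANF (0.69), HSP90B1 (0.61), PDIA4 (0.60), DNAJC3 (0.55), SEL1L (0.54), EDEM1 (0.50), DNAJC10 (0.46), EDEM3 (0.44), HERPUD1 (0.42), SERP1 (0.42), MBTPS2 (0.41), CREB3L2 (0.31), PDIA6 (0.31), ERN1 (0.27), DERL2 (0.27), SDF2L1 (0.24), ERLEC1 (0.21), HSPA5 (0.20) and DNAJB11 (0.20), as log2 differences. It was negative for WFS1 (-0.55), OS9 (-0.35) and EDEM2 (-0.23).

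RKO minus COLO 201 gave 0.51 for DNAJB9 and negative differences for CRELD2 (-0.88), WFS1 (-0.84), CALR (-0.83), CANX (-0.64), DNAJC10 (-0.51), PDIA4 (-0.50) and MBTPS2 (-0.45). RKO minus H1975 gave -1.10 for PDIA4, -0.97 for DNAJC10, -0.86 for MBTPS2, -0.84 for CANX, -0.73 for PDIA6, -0.72 for EDEM3 and -0.71 for MANF. The RKO differences include vehicle column 1, and WFS1 and CRELD2 were the members of the first set that remained lower without it after rescaling, while all 7 members of the second set did.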

How the results depend on the processing

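Of the settings tried on single members, 543 values kept their direction and side of the threshold, 70 lost the call, 8 gained it and 2 turned, and of those on other named genes 629 kept and 46 lost it. The 2 that turned were HSPA5 in RKO, -0.02 without vehicle column 3 and -0.090 without doxycycline column 2, in a range of -0.090 to 0.19 with a column left out. In RKO the members lower were 0 with no minimum TPM and 3 to 10 with a column left out. All genes called there were 28 with no minimum, 2921 after rescaling, 6055 without vehicle column 1 after rescaling and 595 to 2410 with a column left out. The RKO members higher were 3 after rescaling, 3 with small noncoding and mitochondrially encoded genes removed and 13 without vehicle column 1 after rescaling. In COLO 201 the members lower were 29 after rescaling. In H1975 they were 1 with a pseudocount of 5, no minimum, no trend or the replicate block, 4 with those genes removed and 1 to 3 with a column left out, and all genes called were 3075 to 5206. RKO minus COLO 201 gave 5 differing members with no minimum or a minimum of 5, 19 after rescaling, 26 without vehicle column 1 after rescaling and 2 to 17 with a column left out. RKO minus H1975 gave 13 without vehicle column 1 after rescaling and 3 to 20 with a column left out. With the column number as a replicate block, a number for which the labels state no shared batch, the members lower were 20 in COLO 201 and 6 in RKO. The cause was not tested in any of these. TPM tables hold no read totals, so precision at low values, such as EDEM2 in RKO, cannot be set from depth, and 3 columns per arm limit every p.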
